A study of Mus musculus with 11 samples.

Results

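The genes on chromosome 1 around *Gpr37l1* were compared between *Gpr37l1* KO and WT mice in RNA-Seq libraries of dorsal root ganglia (DRGs), where sensory neurons and the satellite glial cells that wrap them reside. The genes were selected by position and by level: rows of the table that start from 125160234 to 145160234 on chromosome 1 (mm10), that is within 10 Mb on either side of the start of *Gpr37l1*, and whose mean level over all 11 libraries was at least 0.5 FPKM (a level per transcript length and library size). The window held 305 rows, and 110 of these reached the limit. *Gpr37l1* itself and 5 others (*Nfasc*, *Kif21b*, *Adora1*, *Kcnt2* and *Cntn2*) were left out by name. The remaining 104 genes, of 36670 rows in all and 15087 tested, are called flanking genes here. The rule used the mean level of each gene and no comparison between groups, but the region was picked with earlier results of these libraries known.

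Each library came from 1 mouse. There were 3 WT control mice, 3 WT mice at 4 weeks after paclitaxel (PTX, a chemotherapy drug), 3 KO controls without *Gpr37l1* and 2 KO mice at the same time after PTX. In each group the mouse numbered 3 was labelled female and the others male, and the labels give no age. The study's methods name the KO strain B6;129S5-Gpr37l1tm1Lex/Mmucd, and state that the mice and their littermates were kept on a C57BL/6 background.

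A gene is inactivated in embryonic stem cells of one mouse strain, and the mutant is then crossed to another. Recombination separates the mutation from its neighbours only slowly, so a stretch of chromosome from the first strain usually stays beside the targeted gene in the mutants, and the WT mice may lack it. Genes in such a stretch can be expressed at another level because of strain variants, and reads that carry variants may map less well to a reference genome of C57BL/6. Deletion of a gene can also alter the expression of its direct neighbours. The strain of the DNA around *Gpr37l1* was not tested here.

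*Gpr37l1*, a G protein–coupled receptor of satellite glia on the minus strand from 135160234 to 135167681, matched the genotype labels. It was measured at 14.6 to 35.7 FPKM in the 6 WT libraries and at 0.21 to 1.15 FPKM in the 5 KO libraries, 98.2% lower on average. Estimated counts summed to 52735648 to 80348732 per library. Both KO PTX libraries lay at the lower end (54914928 and 56747335), as did WT control 1 (52735648) and WT PTX 3 (56308213). Markers of sensory neurons and satellite glia were abundant in every library, with summed levels of 2579 to 3171 FPKM over 10 genes and 990 to 1423 FPKM over 6 genes. Skeletal muscle markers, 10 genes of tissue beside the ganglion, varied from 3.87 to 660.5 FPKM in sum. They stood at 17.6 to 607 FPKM in WT controls, 127 to 660.5 in KO controls, 3.87 to 203 in WT PTX and 79.8 to 113 in KO PTX. Spinal cord markers (8 genes) summed to 7.75 and 18.7 FPKM in KO PTX and to 2.16 to 7.59 FPKM elsewhere. Their part in the results below was not tested, except that the counts of flanking genes were repeated with the muscle score as a covariate. In these bulk libraries, fewer cells of a type and less RNA per cell cannot be told apart.

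Of the 104 flanking genes, 90 are protein coding, 8 are pseudogenes and the rest are noncoding. Their mean levels ran from 0.52 to 138.8 FPKM with a median of 3.84 FPKM, and *Arl8a*, a small GTPase of lysosomes, was the highest. There were 76 genes at lower coordinates than *Gpr37l1* and 28 at higher ones. No flanking gene lies between *Zfp281* at 1.47 Mb and *Nek7* at 3.32 Mb, so the side of higher coordinates is thinly filled beyond *Zfp281*. Distances are from gene start to the start of *Gpr37l1*, negative toward lower coordinates.

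The members just inside the level limit were *Gm15790* at 0.521 FPKM, *Lmod1* at 0.539 and *Lct* at 0.557, and those just outside were *Fam72a* at 0.49, *Gm19705* at 0.448 and *Cacna1s* at 0.442. At the ends of the window, *Actr3* (-9.77 Mb) and *Rgs2* (8.84 Mb) lay inside, while *Dpp10* (-11.84 Mb) and *Rbm3-ps* (15.11 Mb) lay outside. *Actr3* had log2 fold changes of 0.08 between controls and -0.07 between PTX mice, and *Rgs2* of 0.04 and -0.06. *Dpp10*, outside, had 0.94 and 0.10, and *Rbm3-ps* had 0.26 and -0.08.

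The promoters of *Shisa4*, *Phlda3* and *Ddx59* are shown because these had the smallest p-values among the flanking genes between genotypes over both treatments and had KO and WT libraries that did not overlap. They are 300 bases around the RefSeq start of each gene (GRCm38.p6), in the direction of transcription: chr1:135375014-135375313 on the minus strand for *Shisa4*, chr1:135765835-135766134 on the plus strand for *Phlda3* and chr1:136415021-136415320 on the plus strand for *Ddx59*. Capitals mark GC boxes (GGGCGG on either strand).
Shisa4: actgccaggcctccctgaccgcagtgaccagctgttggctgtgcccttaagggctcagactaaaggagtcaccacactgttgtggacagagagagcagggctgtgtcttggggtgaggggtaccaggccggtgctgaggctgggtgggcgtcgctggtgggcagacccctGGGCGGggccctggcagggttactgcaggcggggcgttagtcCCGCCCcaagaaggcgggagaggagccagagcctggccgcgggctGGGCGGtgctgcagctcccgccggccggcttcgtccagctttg
Phlda3: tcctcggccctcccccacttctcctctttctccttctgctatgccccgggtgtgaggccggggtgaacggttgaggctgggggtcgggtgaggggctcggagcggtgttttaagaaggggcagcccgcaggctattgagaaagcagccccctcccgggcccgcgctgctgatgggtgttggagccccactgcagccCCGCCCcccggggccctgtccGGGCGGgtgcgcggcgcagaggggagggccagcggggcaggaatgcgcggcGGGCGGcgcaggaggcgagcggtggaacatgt
Ddx59: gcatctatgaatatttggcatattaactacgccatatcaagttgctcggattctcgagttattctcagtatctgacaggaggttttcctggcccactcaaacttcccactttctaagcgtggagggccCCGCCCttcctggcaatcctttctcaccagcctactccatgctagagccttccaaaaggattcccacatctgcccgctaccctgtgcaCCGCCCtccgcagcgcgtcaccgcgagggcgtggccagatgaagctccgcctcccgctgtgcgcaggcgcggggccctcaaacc
*Shisa4* and *Phlda3* hold 3 GC boxes each and *Ddx59* holds 2. None of these windows holds a CCAAT box (CCAAT) or a TATA box (TATAAA), searched on both strands, and the motifs do not overlap each other. The GC content was 68.3% for *Shisa4*, 71.7% for *Phlda3* and 57.3% for *Ddx59*. Of 32851 RefSeq promoters of this length, 35.7% hold a GC box, 37.4% a CCAAT box and 13.6% a TATA box. The 113 promoters of 86 flanking gene symbols found in that table (of 103) hold them in 57.5%, 40.7% and 5.31%. A match is a description of the letters alone. These are sequences of the reference strain, and the sequence carried by the KO mice was not determined.

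In 6 flanking genes, all 5 KO libraries lay apart from all 6 WT libraries (5.77%, against 0.325% of the genes tested). *Timm17a*, *Shisa4*, *Nav1*, *Phlda3* and *Dars* were lower in KO (5 genes, with 0.133% of all genes lying apart in that direction), and *Ddx59* was higher (1 gene, 0.192%). Of these, 5 lie at higher coordinates than *Gpr37l1*, from *Timm17a* at 0.135 Mb to *Ddx59* at 1.26 Mb, and *Dars* lies at -6.80 Mb. None passed an adjusted p of 0.05 with edgeR's quasi-likelihood test, which was the primary test. Outside the flanking genes, 43 genes tested had KO and WT libraries that lay apart, *Gpr37l1* itself among them. The count of 6 became 10 (9.62%) without WT control 1 and 11 (10.6%) without WT PTX 1, and it was 6 to 8 without any other library. Leaving out a library can only keep or raise such a count. Over all genes tested, 49 became 96 (0.636%) without WT control 1, 67 (0.444%) without WT PTX 1 and 106 (0.703%) without WT PTX 3.

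*Shisa4* (ENSMUSG00000041889, minus strand, 135371057 to 135375237) encodes a transmembrane protein of the Shisa family. Its level was 24.48, 22.58 and 18.41 FPKM in WT controls and 15.84, 18.88 and 16.48 FPKM in WT PTX. In KO controls it was 12.76, 13.09 and 12.54 FPKM, and in KO PTX 14.12 and 12.66 FPKM. Every KO library was below every WT library, and WT controls were the highest group. The mean was 33.0% lower in KO. The log2 fold change over both treatments was -0.54 (SE 0.074, adjusted p = 0.105 from edgeR), with -0.76 between controls (adjusted p = 0.101) and -0.32 between PTX mice (adjusted p = 0.993). The difference between these comparisons was 0.44 (SE 0.15, adjusted p = 0.724).

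*Phlda3* (ENSMUSG00000041801, plus strand, 135766119 to 135769136) encodes a p53-induced protein that restrains Akt signaling. It was measured at 21.23, 17.46 and 16.64 FPKM in WT controls and at 14.26, 16.70 and 12.43 FPKM in WT PTX. In KO controls it was 12.19, 11.32 and 10.48 FPKM, and in KO PTX 11.79 and 9.48 FPKM. The lowest WT library (PTX 3) and the highest KO library (control 1) were nearly level. The mean was 32.8% lower in KO, and the log2 fold change over both treatments was -0.55 (SE 0.077, adjusted p = 0.105 from edgeR). It was -0.70 between controls (adjusted p = 0.186) and -0.40 between PTX mice (adjusted p = 0.993).

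*Ddx59* (ENSMUSG00000026404, plus strand, 136415271 to 136440158), a DEAD-box RNA helicase, was the only one of the 6 that was higher in KO. WT controls had 2.96, 3.04 and 2.54 FPKM and WT PTX had 3.58, 3.02 and 3.37 FPKM. KO controls had 4.22, 4.44 and 4.55 FPKM and KO PTX had 4.36 and 4.98 FPKM, so both KO groups lay above both WT groups. The mean was 46.2% higher in KO, with a log2 fold change of 0.56 over both treatments (SE 0.092, adjusted p = 0.328 from edgeR), 0.63 between controls and 0.49 between PTX mice. A gene on the other strand, *9230116N13Rik*, overlaps *Ddx59*.

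*Nav1* (neuron navigator 1, a microtubule-associated protein of growing axons) spans 135434580 to 135585705 as deposited. It was measured at 7.40, 9.42 and 7.76 FPKM in WT controls, 6.74, 7.89 and 8.88 FPKM in WT PTX, 5.61, 5.99 and 5.51 FPKM in KO controls and 5.84 and 5.65 FPKM in KO PTX. The KO libraries were tightly grouped, while the WT libraries spread over a wider range. The log2 fold change was -0.49 over both treatments (SE 0.090, adjusted p = 0.535 from edgeR), -0.52 between controls and -0.45 between PTX mice. Noncoding genes, among them *Mir1231*, overlap it on the same strand.

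*Timm17a*, a subunit of the complex that imports proteins across the mitochondrial inner membrane, had 10.70, 9.31 and 10.20 FPKM in WT controls and 9.15, 9.93 and 9.54 FPKM in WT PTX. KO controls had 7.80, 7.96 and 8.0 FPKM and KO PTX had 8.43 and 7.47 FPKM. The mean was 19.1% lower in KO, and the log2 fold change over both treatments was -0.30 (SE 0.057, adjusted p = 0.58 from edgeR). The difference was smaller than for *Shisa4* or *Phlda3* but was seen in both treatments, with -0.35 between controls and -0.26 between PTX mice.

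*Dars*, the cytosolic aspartyl-tRNA synthetase, was the gene farthest from *Gpr37l1* among the 6. Its levels were 16.43, 17.97 and 18.12 FPKM in WT controls, 17.00, 18.03 and 16.70 in WT PTX, 15.65, 15.37 and 15.23 in KO controls, and 14.39 and 15.42 in KO PTX. The genotypes did not overlap, but the mean was only 12.5% lower in KO, a log2 fold change of -0.20 over both treatments (SE 0.049, adjusted p = 1 from edgeR). The deposited coordinates of *Dars* and *Nav1* differ from those of GENCODE M21, while 93 of the 104 flanking genes have the same ones.

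**Figure D1:**
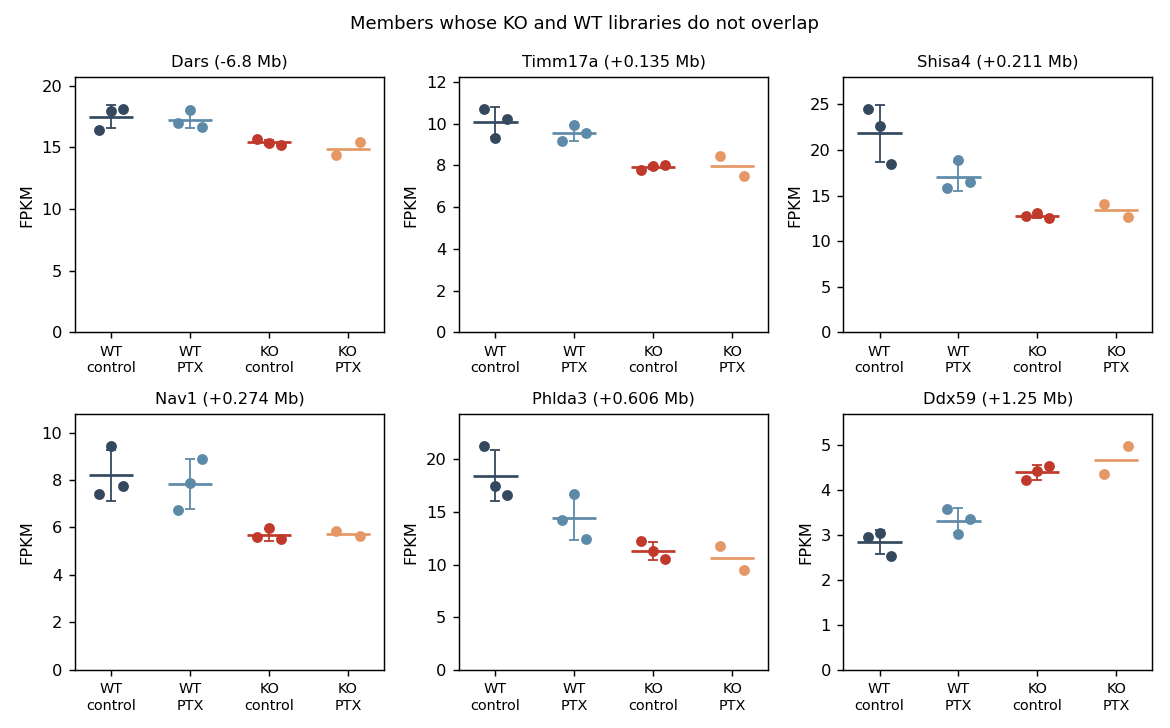
FPKM (vertical axis, from 0) of the 6 flanking genes whose KO and WT libraries lay apart, 1 point per library in the 4 groups, with the mean as a bar and the SD as whiskers for groups of 3. In *Dars*, *Timm17a*, *Shisa4*, *Nav1* and *Phlda3* every KO point lies below every WT point, and in *Ddx59* every KO point lies above.

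The genes apart by genotype were not a continuous block. From *Timm17a* to *Ddx59*, a span of 1.12 Mb, 11 flanking genes were measured, and 5 of these had genotypes that lay apart. The other 6 genes, *Lmod1*, *Ipo9*, *Csrp1*, *Igfn1*, *Tmem9* and *Camsap2*, overlapped between genotypes and had log2 fold changes over both treatments from -0.08 to 0.18. *Ipo9*, a nuclear import receptor that starts between *Shisa4* and *Nav1*, was at 8.72 to 10.9 FPKM in WT and at 9.70 to 11.7 FPKM in KO.

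The 5 flanking genes nearest to *Gpr37l1* on each side were looked at next. Rows under the level limit or left out by name are not counted, so these need not be direct neighbors. On the lower side the 5 reach to *Syt2* at -0.514 Mb. *Gm15445*, a noncoding RNA annotated as antisense, starts 7.27 kb below *Gpr37l1* and was the nearest of all. It was at 0.67, 1.15 and 1.18 FPKM in WT controls and 0.37, 1.26 and 0.96 in WT PTX. In KO controls it was 0.29, 0.23 and 0.18 FPKM, and in KO PTX 0.38 and 0.33. All KO libraries were low, and they met the WT range only at WT PTX 1. The log2 fold change was -1.65 over both treatments (SE 0.36, adjusted p = 0.837 from edgeR), -2.08 between controls and -1.23 between PTX mice. These values rest on 9 to 15 estimated counts per KO library and 20 to 64 per WT library. *Gm15445* lies within *Arl8a* on the same strand, so its reads may be split with those of *Arl8a*.

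*Arl8a*, which starts 13.4 kb below *Gpr37l1*, was at 133 to 154 FPKM in WT and 127 to 139 FPKM in KO, with a log2 fold change of -0.07 (SE 0.052) over both treatments. *Gm26280*, an rRNA gene inside *Arl8a*, was at 0.29 to 0.92 FPKM in WT and at 0 to 1.07 FPKM in KO. *Ppp1r12b*, a regulatory subunit of myosin phosphatase at -405.6 kb, had medians of 3.06 FPKM in WT and 2.84 FPKM in KO and a log2 fold change of -0.17 (SE 0.050, adjusted p = 1 from edgeR). On the other side, the pseudogene *Gm4204* (71.8 kb above) and *Rnpep*, an aminopeptidase (102 kb above), had 0.13 (SE 0.089) and -0.12 (SE 0.063). *Lmod1*, an actin nucleator of smooth muscle, had -0.08 (SE 0.17). Of the 10 nearest flanking genes, *Timm17a* and *Shisa4* were those whose genotypes lay apart.

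Over all flanking genes, edgeR called 0 of 104 between KO and WT controls at an adjusted p under 0.05, against 0.00663% of all genes tested, and *Gpr37l1* was the gene called. At an unadjusted p under 0.05 there were 23 flanking genes (7.54% of all genes tested passed), and under 0.01 there were 11 (10.6%, against 1.33%). Of the 11, 8 were lower in KO (0.63% of all genes were) and 3 were higher (0.703%). The count of 11 became 7 without WT control 2, KO control 1 or KO control 2, and edgeR called 1 flanking gene without KO control 3. DESeq2, an alternative test, called 6 flanking genes between controls (5.77%, against 0.278% of all genes). They were *Mcm6*, *Timm17a*, *Shisa4*, *Nav1* and *Phlda3*, lower in KO, and *Ddx59*, higher.

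Between KO PTX and WT PTX mice, edgeR also called 0 flanking genes (0.0133% of all genes). This comparison sets none of the control libraries against each other. Its p-values still draw on them, since the spread and the sex term come from the fit over all libraries. There were 13 at an unadjusted p under 0.05 (3.55% of all genes) and 4 under 0.01 (3.85%, against 0.597%), and DESeq2 called 0 (0.0597% of all genes). The 4 were *Nav1* and *Phlda3*, lower in KO, and *Ddx59* and *Chil1*, higher. *Chil1*, a secreted chitinase-like protein at -0.978 Mb, was at 1.70, 0.63 and 1.06 FPKM in WT PTX and at 3.82 and 2.87 FPKM in KO PTX, a log2 fold change of 1.64 (SE 0.52, adjusted p = 0.993 from edgeR). Between controls its groups overlapped, at 0.71 to 3.04 FPKM in WT and 1.34 to 2.64 FPKM in KO. The count of 4 became 0 without KO PTX 3, 1 without WT PTX 2 or WT PTX 3, 2 without KO control 1 or KO control 2, and 8 without WT control 1.

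Over both treatments together, edgeR called 0 flanking genes (0.0133% of all genes), with 24 at an unadjusted p under 0.05 (3.75% of all genes) and 13 under 0.01 (12.5%, against 0.736%). Of the 13, 11 were lower in KO (0.418% of all genes) and 2 were higher (0.318%). DESeq2 called 6 (0.179% of all genes), by symbol those it called between controls. With the muscle score as a covariate, an alternative chosen after the data were seen, edgeR had 9 at an unadjusted p under 0.01. The count was 8 without WT PTX 2 and 9 to 16 without any other library. For these refits and those above, the share of all genes tested under 0.01 is not given. A changed count in them thus cannot be told apart from a change over all genes. *Phlda3* passed the adjusted threshold without WT control 2 (adjusted p = 0.037 from edgeR).

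The 13 genes under 0.01 were *Shisa4*, *Phlda3*, *Ddx59*, *Nav1*, *Timm17a*, *Dars*, *Gm15445* and *Ppp1r12b*, described above, and *Mcm6*, *Gm8451*, *Rabif*, *Cyb5r1* and 1 of 2 rows of *Zc3h11a*. *Mcm6*, a subunit of the replicative DNA helicase at -6.83 Mb and next to *Dars*, was at 2.88, 2.53 and 2.46 FPKM in WT controls and 1.24, 2.10 and 1.53 in WT PTX. In KO controls it was 0.56, 0.43 and 1.33 FPKM, and in KO PTX 1.03 and 1.37. The control groups lay apart, and the PTX groups overlapped. The log2 fold change was -1.86 between controls (SE 0.34) and -0.53 between PTX mice (SE 0.37), with -1.20 over both (SE 0.26, adjusted p = 0.787 from edgeR).

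The pseudogene *Gm8451* (-7.88 Mb) was at 0.64 to 1.38 FPKM in WT and 0.50 to 0.75 FPKM in KO, a log2 fold change of -0.82 over both treatments (SE 0.23). These values rest on 14 to 28 estimated counts per KO library and 18 to 50 per WT library. *Gm8451* lies within *Mgat5* on the other strand. *Rabif*, a chaperone of Rab GTPases at -0.666 Mb, was at 19.41, 21.69 and 19.89 FPKM in WT controls and 17.55, 20.61 and 21.50 in WT PTX, against 16.40, 17.44 and 16.22 in KO controls and 17.74 and 16.40 in KO PTX. Only WT PTX 1 fell within the KO range, and the log2 fold change was -0.25 (SE 0.070, adjusted p = 1 from edgeR). *Cyb5r1*, a cytochrome b5 reductase at -0.755 Mb, was at 22.15 to 29.90 FPKM in WT and 20.68 to 26.04 FPKM in KO, a log2 fold change of -0.14 (SE 0.040).

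The size of the genotype difference was set against distance in both comparisons. Within 1 Mb of *Gpr37l1*, 8 of 26 flanking genes (30.8%) had an unadjusted p under 0.01 over both treatments, and in 4 (15.4%) the genotypes lay apart. Within 2.5 Mb there were 10 of 44 (22.7%), and in 5 (11.4%) the genotypes lay apart. Beyond 2.5 Mb there were 3 of 60 (5%), and in 1 (1.67%) the genotypes lay apart. The 3 distant genes, *Gm8451*, *Mcm6* and *Dars*, all lie from -7.88 to -6.80 Mb. Also in that span lie *Tmem163*, *Ccnt2*, *Rab3gap1*, *Zranb3*, *Rpl28-ps1*, *R3hdm1*, *Ubxn4* and *Lct*, whose genotypes overlapped. Their unadjusted p over both treatments ran from 0.043 to 0.98 (edgeR). Of the 27 genes from -5 to -2.5 Mb and the 6 and 8 genes from 2.5 to 5 and from 5 to 10 Mb, none reached 0.01 over both treatments.

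Spearman's rho of the absolute log2 fold change against distance was -0.143 between controls, -0.108 between PTX mice and -0.214 over both treatments (104 genes each, which share libraries and are not independent). The median absolute log2 fold change between controls was 0.165 within 1 Mb and 0.141 beyond 2.5 Mb, and between PTX mice it was 0.213 and 0.154. Over all genes tested it was 0.114 and 0.0985. With distances taken to the midpoints of the genes, the counts in every stretch were identical. The median log2 fold change of the flanking genes was 0.02 between controls and -0.06 between PTX mice, against 0.0032 and -0.0089 over all genes tested. Lower in KO were 49 of 104 (47.1%) between controls and 62 of 104 (59.6%) between PTX mice, against 49.2% and 52.3% of all genes tested.

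**Figure D2:**
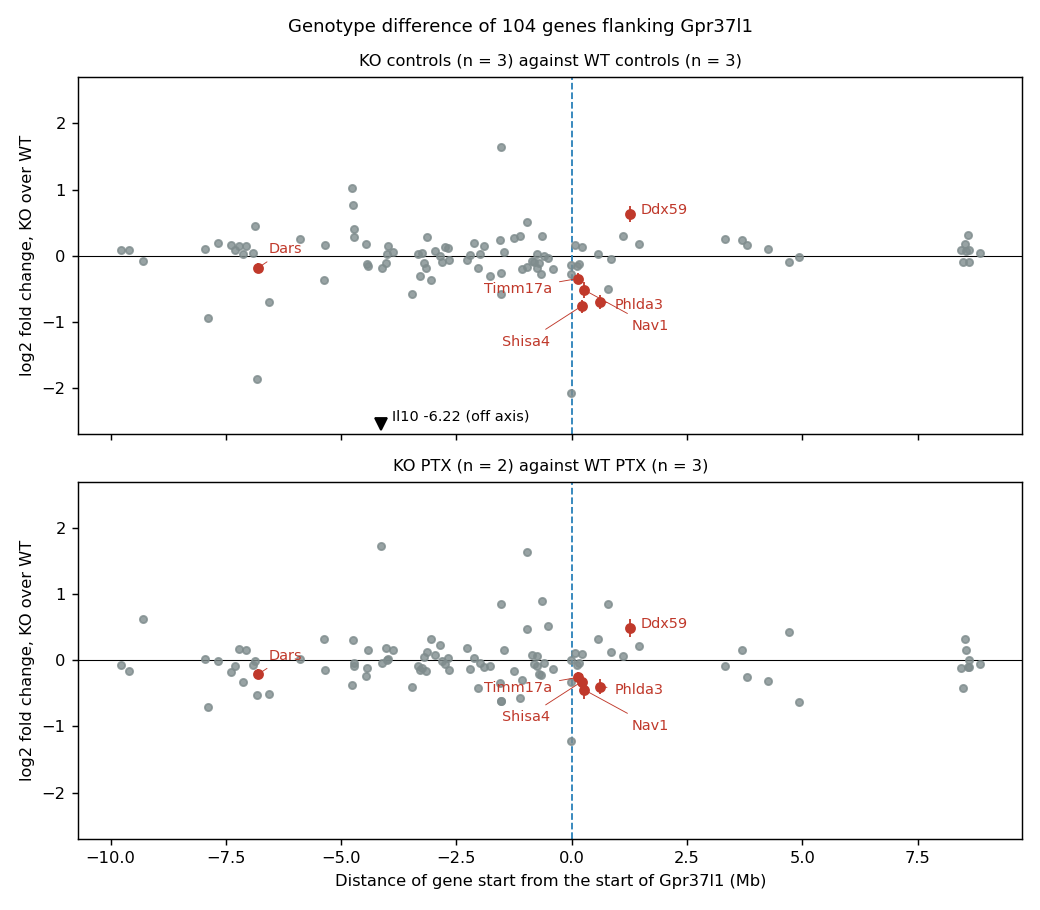
Log2 fold change of KO over WT (vertical axis) for the 104 flanking genes against the distance of their start from that of *Gpr37l1* in Mb (horizontal axis, *Gpr37l1* as the dashed line), between controls (top) and between PTX mice (bottom). Red points with SE are the 6 genes whose genotypes lay apart, and 5 of these lie within 1.26 Mb of *Gpr37l1* at higher coordinates; *Il10* at -6.22 between controls is off the axis.

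**Figure D3:**
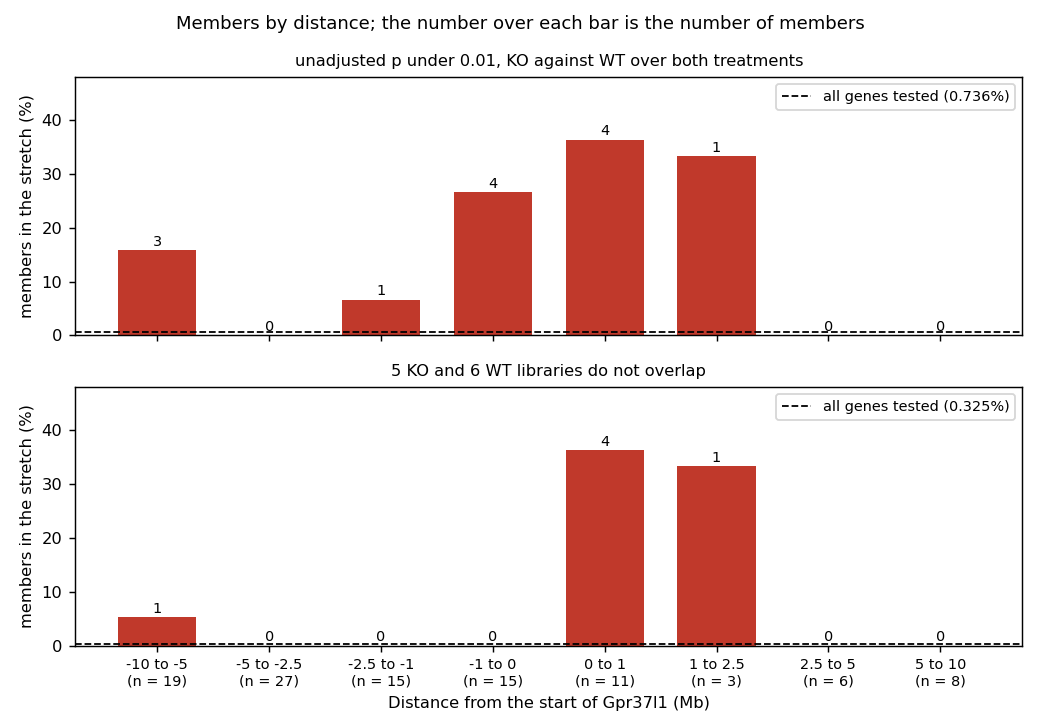
Share of flanking genes (vertical axis, %) in 8 stretches of distance from *Gpr37l1* (horizontal axis, Mb, with the number of genes), for an unadjusted p under 0.01 over both treatments (top) and for KO and WT libraries that lay apart (bottom). The dashed lines are the shares of all genes tested, 0.736% and 0.325%. The bars are highest from 0 to 1 Mb, and 3 genes stand in the farthest stretch of lower coordinates.

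Because the comparisons between controls and between PTX mice share no library, their log2 fold changes can be set side by side. Within 1 Mb, 21 of 26 flanking genes (80.8%) had the same sign in both, 15 lower and 6 higher in KO, with Pearson's r of 0.722 and Spearman's rho of 0.752. Beyond 2.5 Mb, 29 of 60 (48.3%) had the same sign, with r of -0.513, which became 0.322 without *Il10*, and rho of 0.1. Over all 104 it was 61 (58.7%) with r of -0.0892, which became 0.5 without *Il10*. Over all 15087 genes tested, 43.7% had the same sign and r was -0.13. By stretch, the share was 80% from -1 to 0 Mb and 81.8% from 0 to 1 Mb. It was 53.3% from -2.5 to -1 Mb, 51.9% from -5 to -2.5 Mb and 42.1% from -10 to -5 Mb. At higher coordinates it was 100% of 3 genes, 33.3% of 6 genes and 62.5% of 8 genes, going outward from 1 Mb. Both comparisons come from 1 fit with a common term for sex, and these values are descriptions across genes with no test.

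**Figure D4:**
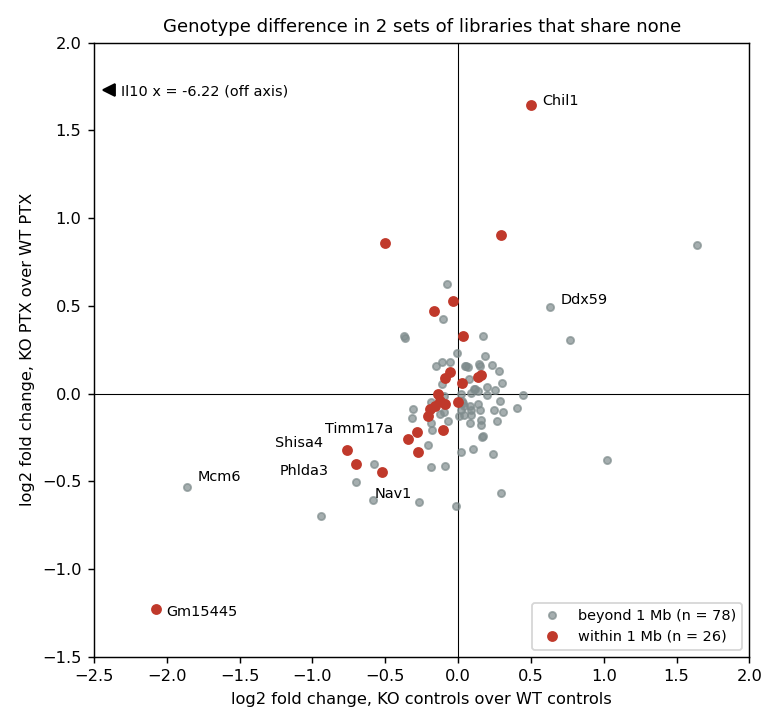
Log2 fold change of KO over WT between controls (horizontal axis) against that between PTX mice (vertical axis), 1 point per flanking gene. Of the genes within 1 Mb (red), 21 of 26 lie in the lower left or upper right part, against 29 of 60 of those beyond 2.5 Mb; *Il10* lies off the horizontal axis at -6.22.

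The 3 KO and 3 WT control libraries lay apart in 26 flanking genes (25%, against 9.28% of all genes). The 2 KO and 3 WT PTX libraries lay apart in 25 (24%, against 20.2%), a share near that of all genes.

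Chromosome 1 outside the 10 Mb window held 746 tested genes in 18 stretches of 10 Mb. Of these genes 23 (3.08%) had an unadjusted p under 0.01 over both treatments and 5 (0.67%) had genotypes that lay apart. The stretch from 0 to 10 Mb above *Gpr37l1* had 16.7% by either measure, and that from 0 to 10 Mb below had 11.4% and 1.27%. These stretches held 30 and 79 genes, with those left out by name, and of the 76 flanking genes below *Gpr37l1* 8 had an unadjusted p under 0.01. By the p-value, the stretch from -130 to -120 Mb had 11.1% (3 of 27 genes), and its genotypes did not lie apart in any gene. The stretch from -50 to -40 Mb had 8% by the p-value, and its 2.67% of genes that lay apart exceeded the 1.27%, as did 1.72% from 20 to 30 Mb and 1.56% from 40 to 50 Mb.

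By role, 66 of the 104 fell into 11 lists by function. No list had a gene past the adjusted threshold in edgeR over both treatments. The counts by list at an unadjusted p under 0.01 are to be read against 12.5% of the flanking genes and 0.736% of all genes tested, and 1 of 8 is the same share as 12.5%. RNA and protein synthesis had 3 of 9 rows at an unadjusted p under 0.01, with *Dars* lower and *Ddx59* and 1 row of *Zc3h11a* higher. Summed with the rows it overlaps, that row gave -0.12 on the log2 scale (edgeR, adjusted p = 1). The other members of that list included *Snrpe*, a core protein of the spliceosome, and *Eif2d*, a translation initiation factor, which had log2 fold changes of -0.05 and 0.01. Mitochondria and metabolism had 2 of 6, *Timm17a* and *Cyb5r1*, both lower, and *Adipor1*, a receptor of adiponectin, had 0.04.

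Membrane traffic and lysosome had 2 of 9, *Shisa4* and *Rabif*, both lower. *Shisa4* was counted in this list, but a role of it in membrane traffic was not examined here. In the same list *Rab7b*, a GTPase of late endosomes, had -0.49 (SE 0.20) and *Tmem9* had 0.03. Cytoskeleton and axon guidance had 2 of 7, *Nav1* and *Ppp1r12b*, both lower, while *Camsap2*, which binds microtubule minus ends, had 0.18 (SE 0.085) and *Srgap2*, a regulator of neuronal branching, had 0.11 (SE 0.046). DNA replication, chromatin and repair had 1 of 8, *Mcm6*, lower. The list of p53 and growth control had 1 of 8, *Phlda3*, lower, with *Mdm4*, an inhibitor of p53, at -0.06 and *Btg2*, a p53 target that slows division, at -0.25 (SE 0.095). By sign alone, 6 genes of this list were lower in KO and 2 higher, with a median of -0.118. Of all flanking genes 51.9% were lower, and of all genes tested 49.3%. Other lists were uneven as well: membrane traffic had 6 lower and 3 higher, and mitochondria 4 lower and 2 higher. RNA and protein synthesis had 3 lower and 6 higher.

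In the other 5 lists, 0 genes had an unadjusted p under 0.01: muscle contraction (4 genes), immune and complement (5), extracellular matrix (2), kinase, G protein and lipid signaling (7) and developmental transcription factors (1). Among immune genes, *Cxcr4*, a chemokine receptor at -6.57 Mb, had -0.60 over both treatments (SE 0.20), -0.70 between controls and -0.50 between PTX mice, with 4.32 to 7.78 FPKM in WT and 2.89 to 6.02 FPKM in KO. Macrophage markers (7 genes) summed to 14.4 to 16.8 FPKM in WT controls, 12.7 to 13.8 in KO controls, 10.3 to 12.2 in WT PTX and 10.6 to 11.9 in KO PTX. Blood markers (5 genes of hemoglobin and heme synthesis) had median log2 fold changes of -0.563 between controls and -0.344 between PTX mice, and summed to 156.3 to 294.2 FPKM in WT controls, 71.5 to 273.2 in KO controls, 89.3 to 280.6 in WT PTX and 78.6 to 150.2 in KO PTX. The part of either marker list in these values was not tested. The median log2 fold change of the lists ran from -0.33 (immune and complement) to 0.16 (muscle contraction), against -0.0080 over all flanking genes.

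The flanking genes were also compared between PTX and control within each genotype. In WT mice edgeR called 0 (0.00663% of all genes), with 17 at an unadjusted p under 0.05 (13.5% of all genes) and 10 under 0.01 (9.62%, against 3.6%). DESeq2 called 4, *Cd55b*, *Cd55*, *Cyb5r1* and *Shisa4* (2.05% of all genes). *Cd55*, which protects cells from complement, was at 79.24, 69.03 and 108.7 FPKM in WT controls and 104.2, 106.8 and 136.4 in WT PTX. It was at 104 to 115 FPKM in KO controls and at 101.5 and 123.4 FPKM in KO PTX. The WT controls share their libraries with the comparison between controls, so the values are given side by side. *Shisa4* had -0.35 for PTX in WT and -0.76 for KO controls, *Phlda3* -0.36 and -0.70, *Mcm6* -0.70 and -1.86, *Ddx59* 0.22 and 0.63, *Nav1* -0.07 and -0.52, and *Timm17a* -0.08 and -0.35.

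In KO mice edgeR called 0 flanking genes between PTX and control (0.00663% of all genes), with 6 at an unadjusted p under 0.05 (4.32% of all genes) and 1 under 0.01 (0.962%, against 0.848%). The 1 gene was *Snrpe*, at -0.77 (SE 0.21, adjusted p = 0.999 from edgeR), and DESeq2 called 0 (0.186% of all genes). For the difference of the genotype effect between PTX and control, edgeR called 0 (0.00663% of all genes), with 9 under 0.05 (6.3% of all genes) and 1 under 0.01 (0.962%, against 1.01%), and DESeq2 called 0 (0.0795% of all genes). The 1 gene was *Cd55b* at -1.40 (SE 0.41, adjusted p = 0.724 from edgeR). At 0.01, both shares were near those of all genes.

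Some flanking genes split within groups, and genotype did not separate the high from the low libraries. *Syt2*, a calcium sensor of synaptic vesicles at -0.514 Mb, was at 3.65 FPKM in WT control 2, 2.49 in WT PTX 2 and 2.61 in KO control 1. In the other 8 libraries it was at 34.7 to 38.9 FPKM. The estimated counts split as well, with 2257, 1602 and 1630 in the low libraries and 15462 to 24431 in the others. *Il10*, an anti-inflammatory cytokine, was at 2.22 FPKM in WT control 1, 3.13 in WT PTX 3, 2.22 in KO PTX 2 and 1.73 in KO PTX 3. It was listed at 0 in 6 libraries and at 0.03 FPKM in KO control 1, and its log2 fold changes of -6.22 (SE 3.0) between controls and 1.73 (SE 2.6) between PTX mice rest on these few libraries.

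*Zc3h11a*, which encodes a protein of mRNA export, has 2 rows that overlap each other and *Gm38394* on the same strand near -1.54 Mb. The row ENSMUSG00000102976 was at 0.90 to 4.27 FPKM in WT and 3.42 to 6.97 FPKM in KO, a log2 fold change of 1.24 over both treatments (SE 0.38). The row ENSMUSG00000116275 was at 4.48 to 17.44 FPKM in WT and 4.65 to 10.16 FPKM in KO, with -0.60 (SE 0.30). When the counts of the 3 rows were summed, an alternative chosen after the data were seen, the log2 fold change was -0.12 (SE 0.069, adjusted p = 1 from edgeR), with -0.03 between controls and -0.21 between PTX mice. The single rows thus had opposite signs and the sum lay between them. Of all flanking genes, 26 overlap another gene on the same strand and 46 overlap one on the other strand. The kit kept strand, but whether counting used it is not given in the sources used here.

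**Figure D5:**
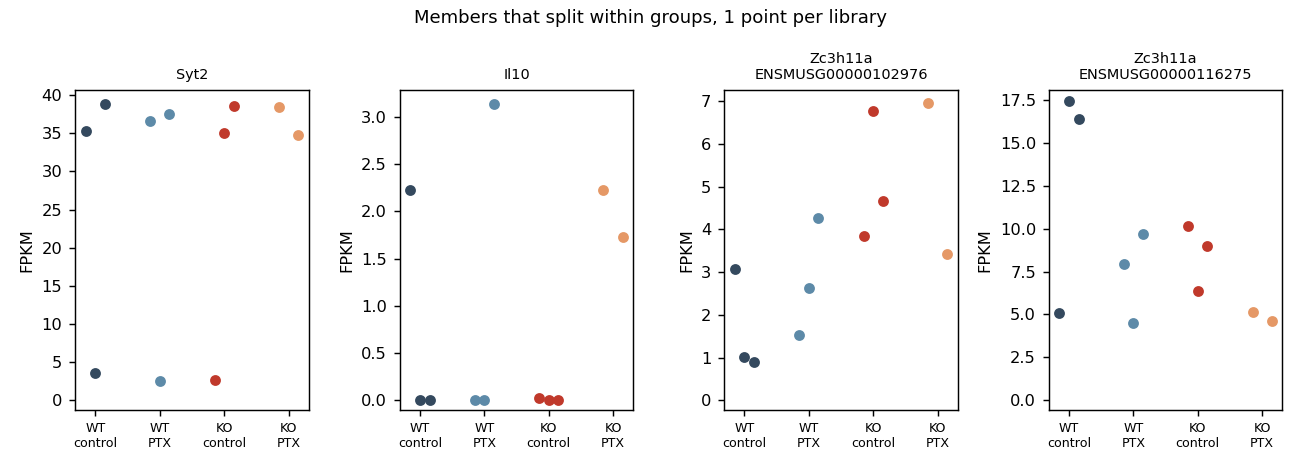
FPKM (vertical axes) of *Syt2*, *Il10* and both rows of *Zc3h11a*, 1 point per library in the 4 groups. *Syt2* falls into 3 libraries at 2.49 to 3.65 FPKM and 8 at 34.7 to 38.9 FPKM, *Il10* is above 1 FPKM in 4 libraries, and the mean of 1 row of *Zc3h11a* is higher and that of the other lower in KO.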

How the data were processed

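RNA-Seq libraries of DRGs from 11 mice were compared. The deposited table holds FPKM, which the authors normalized to transcript length and library size, and estimated counts, which the authors deposited without normalization. The submitters' processing notes name cutadapt, FastQC, HISAT2, StringTie and mm10 without versions. All columns were used. The counts were rounded and fitted with edgeR 4.0.16 (TMM, quasi-likelihood, group and sex) in R 4.3.3 over the 15087 genes with a mean of at least 0.5 FPKM. Adjusted p-values are Benjamini-Hochberg over all of these, and SEs are the log2 fold change over the square root of F. DESeq2 1.42.0 and limma 3.58.1 were alternatives. The fits were tested on simulated data. Figures used matplotlib 3.10.9.

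The flanking genes, function lists, marker lists and tests were chosen with earlier results of these data known. Named genes were the 10 with the smallest p over both treatments, those whose genotypes lay apart, the 5 nearest on each side, the edges of the rule and up to 3 per function list. 1 gene that fits this rule is not reported here. *Chil1*, *Cd55b*, *Snrpe*, *Il10*, *Ipo9*, *Gm38394* and other members were named after their values were seen. The KO PTX libraries are numbered 2 and 3 by their descriptions. Replicate numbers come from the labels and denote different mice. Deviations of same-numbered WT and KO controls correlated in 3 of 3 pairs (r from 0.109 to 0.231), so a fit with the number as a block was run for the genotype comparisons. Number 3 is the female of each group, so sex and number cannot be told apart there. For WT controls with KO PTX, r was over 0.1 in 2 of 2 pairs. For WT PTX, it was in 1 of 3 pairs with KO controls and 1 of 2 with KO PTX. Between treatments, it was in 0 of 3 pairs in WT and 0 of 2 in KO. In a group of 2 the deviations mirror each other, so the 2 pairs with KO PTX are not independent. Pairs with different numbers had r from -0.255 to 0.16, so r over 0.1 was not limited to the same number. Since nothing states that mice came from separate litters, p-values measure the spread between these mice. Depth gives counting error only.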

Additional observations from a re-analysis of the deposited data

Results flagged for a closer look

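*Dennd1b*, which encodes an activator of Rab35 at 3.80 Mb, had opposite genotype differences in the 2 treatments. It was at 0.99, 1.20 and 1.24 FPKM in WT controls and 1.32, 1.23 and 1.30 in KO controls, each KO control above the WT mean. In WT PTX it was at 1.36, 1.26 and 1.39 FPKM and in KO PTX at 1.16 and 1.10, both below the WT mean. The log2 fold change was 0.17 between controls (unadjusted p = 0.106 from edgeR) and -0.25 between PTX mice (unadjusted p = 0.0428 from edgeR). The difference of the log2 fold changes was -0.412 on the log2 scale (SE 0.14), and it did not pass the threshold (adjusted p = 0.724 from edgeR). Of all 104 flanking genes, only 61 had the same sign in both comparisons. Several noncoding genes overlap *Dennd1b* on both strands.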

How the results depend on the processing

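With DESeq2, 6 flanking genes were called between KO and WT controls, 6 between KO and WT over both treatments and 4 for PTX in WT, where edgeR called 0, and 7 had an unadjusted p under 0.01 between KO PTX and WT PTX in place of 4. Without the filter on low values edgeR called 1 between controls. With 1 library left out in turn, the flanking genes called were 0 to 1 between controls (1 without KO control 3) and 0 to 1 over both treatments (1 without WT control 2). Those at an unadjusted p under 0.01 were 7 to 14 between controls (7 without WT control 2, KO control 1 or KO control 2), 0 to 8 between PTX mice and 8 to 16 over both. The shares of all genes tested under 0.01 in these fits are not given, so changed counts cannot be told apart from changes over all genes. Flanking genes whose genotypes lay apart were 6 to 11, against 67 to 106 of all genes tested (0.444% to 0.703%). The share of flanking genes with the same sign in controls and PTX was 49 to 68.3%, lowest without KO PTX 2 and highest without KO PTX 3. With an arm of 1 KO PTX library, that library is assumed to vary like the other groups. The causes were not tested.

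The replicate block changed no call and moved no count by over 1.5 times. It turned the log2 fold change of *Actr3* over both treatments to -0.00364. That of *Gm15790* turned to 0.000428 and 0.00474 with limma (pseudocounts 1 and 0.1), 0.0186 without the sex term and 0.0766 with the muscle score, which was added after the data were seen. The muscle score also turned *Prelp* to -0.103, *Syt2* to -0.00824, *Igfn1* to -0.0532 and *Rgs2* to 0.025. None of these genes was called. With 1 library left out, the sign turned for *Actr3* (-0.0517 to 0.0476), *Gm15790* (-0.154 to 0.148), *Prelp* (-0.152 to 0.25), *Fmod* (-0.839 to 0.149), *Syt2* (-0.239 to 0.75), *Gm26280* (-2.72 to 0.198), *Lmod1* (-0.174 to 0.0177), *Igfn1* (-0.123 to 0.726) and *Rgs2* (-0.111 to 0.0671). Over the other alternatives (another scaling, a stricter filter, no sex term, an additive treatment term, the libraries of each comparison alone and midpoint distances), the counts stayed within 1.5 times. Groups of 2 and 3 mice limit what could be detected.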
